A study of Danio rerio with 6 samples.

Results

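The subject is 7 enzymes of glycolysis, aldocb, tpi1b, gapdh, pgk1, eno1a, ldha and ldhba, in the telencephalon of zebrafish given an aromatase inhibitor. The genes were taken by symbol, through every probe set of the array, other than the maker's control probe sets, that the platform annotation pairs with that single symbol. All 7 had at least 1 such probe set, which gave 9 probe sets of the 15502 on the array and 7 genes of the 8793 with a name. The rule used no measured values, though the 7 genes were chosen with earlier results of these data known.

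RNA came from adult, sexually mature male zebrafish (Danio rerio), and the tissue was the telencephalon, the most anterior division of the brain. The fadrozole group was kept for 10 days with fadrozole at 200 µg/L, and the labels give the control group no treatment and name no vehicle. Fadrozole is a non-steroidal inhibitor of aromatase, the enzyme that makes estrogens from androgens. Each group had 3 one-colour arrays, each hybridised with RNA pooled from about 30 telencephalons, and the labels do not say how far the pools of a group were independent, so the p-values cover only the scatter among these 6 arrays.

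Glycolysis turns glucose into pyruvate and yields ATP without oxygen. In brain it supplies both neurons and glia, and lactate dehydrogenase converts pyruvate and lactate into each other at its end. Zebrafish carry duplicate copies of many of its genes, marked a and b, and several of its enzymes also come in forms typical of muscle, liver or brain.

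The deposited values are ratios of each array to the median of the 3 control arrays, probe set by probe set. Levels are given below as log2 of that ratio after each array's overall shift was removed, so 0 is about the control median and 1 is a doubling. The recurring values of 0.11, -0.25 and 0.14 on control replicates 1, 2 and 3 stand for a deposited ratio of exactly 1. Ratios hold no brightness, so a level cannot be compared between genes, the telencephalic origin could not be checked against marker genes, and whether a probe set was above background is unknown. In pooled tissue, fewer cells of a type and less RNA per cell cannot be told apart.

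None of the 7 enzymes differed between the groups beyond the spread of the arrays. In limma 0 of the 9 probe sets passed an adjusted p of 0.05, and 0 had an unadjusted p under 0.05. Over all probe sets the shares were 0% and 4.23%. For all 9 the fadrozole and control arrays overlapped, where 7.83% of all probe sets had no overlap. The median log2 difference, fadrozole minus control, was -0.05 over the 9 probe sets and -0.002 over all probe sets, and 6 of the 9 were lower on the fadrozole arrays, against 50.1% of all probe sets. The adjusted p in limma was 0.999 for each of the 9, and the two-sided exact permutation p lay between 0.4 and 0.9. Over the 6 tightest probe sets described below the 95% intervals together spanned 0.620 to 1.71 times the control level. The lower end was that of aldocb Dr.19223.1.S2_at and the upper end that of ldhba, so each probe set's own interval was narrower. With 3 arrays per group, true differences inside a probe set's own interval were not excluded. The members did not behave alike: aldocb, tpi1b, eno1a, ldhba and one of the pgk1 probe sets stayed within a narrow band on all 6 arrays, while gapdh, ldha and the other pgk1 probe set varied several-fold between arrays of the same group.

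**Figure D1:**
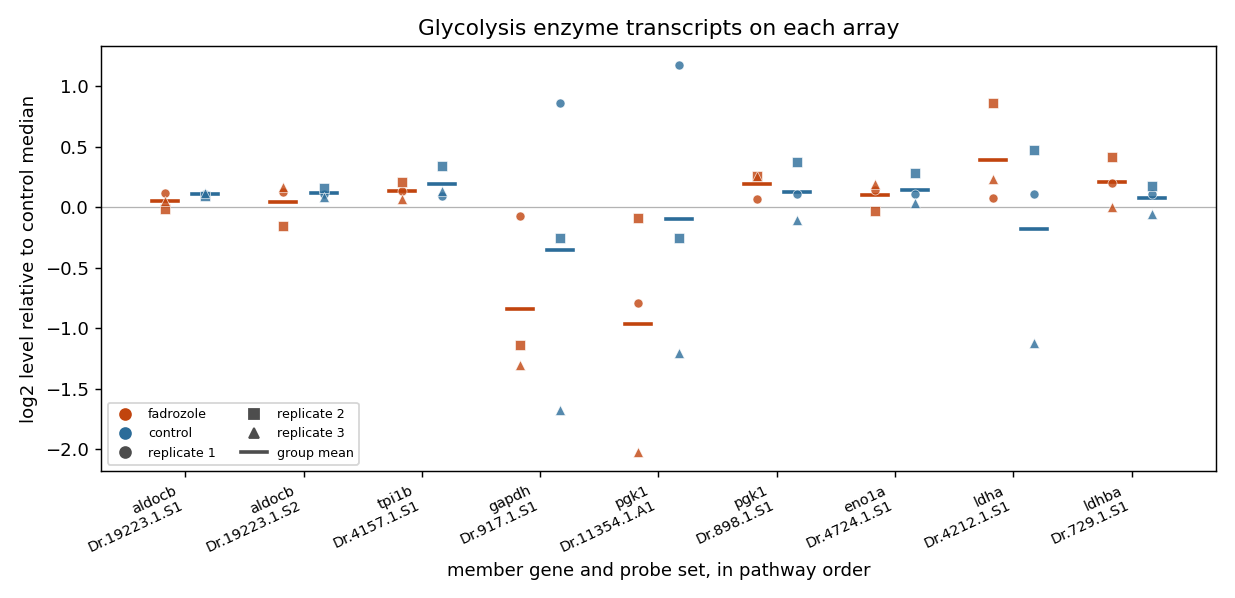
The y axis is the log2 level relative to the control median and the x axis lists the 9 member probe sets in pathway order. Each point is 1 array (fadrozole orange, control blue, marker shape for the replicate) and each bar a group mean. The points of gapdh, ldha and the pgk1 probe set Dr.11354.1.A1_at spread over 2.53, 1.98 and 3.19 log2 units, and the groups overlap for all 9 probe sets.

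Aldolase C, encoded by aldocb, splits fructose bisphosphate and is the aldolase form known from brain. Its probe set Dr.19223.1.S1_at was at 0.12, -0.01 and 0.05 on fadrozole replicates 1, 2 and 3 and at 0.11, 0.09 and 0.11 on control replicates 1, 2 and 3. The largest step between any 2 of these arrays was 1.097-fold. The means were 0.05 ± 0.067 on fadrozole arrays and 0.10 ± 0.012 on control arrays (SD, n = 3 each). The log2 difference was -0.05 ± 0.24 (SE), or 0.964 times the control level with a 95% interval of 0.643 to 1.45 times in limma. That interval is wider than the arrays' own scatter because limma draws the variance of each probe set towards a common value, here an SD of 0.50, while the SD within groups of this probe set was 0.048. The second aldocb probe set, Dr.19223.1.S2_at, was at 0.12, -0.16 and 0.16 on the fadrozole arrays and at 0.11, 0.16 and 0.08 on the control arrays. Its log2 difference was -0.07 ± 0.25 (SE). The 2 probe sets of the gene lay within 0.14 of each other on every array.

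Triosephosphate isomerase, which interconverts the products of aldolase, was measured for tpi1b by the probe set Dr.4157.1.S1_at. Its levels were 0.13, 0.20 and 0.07 on the fadrozole arrays and 0.09, 0.34 and 0.14 on the control arrays. Replicate 2 was the highest array in both groups. The log2 difference was -0.05 ± 0.25 (SE), with a 95% interval of 0.633 to 1.47 times the control level. The other copy, tpi1a, was as tight, at -0.16 ± 0.22 (SE) with an SD within groups of 0.10.

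Glyceraldehyde phosphate dehydrogenase makes the first NADH of the pathway, and its transcript is widely used as a reference in expression assays. The gapdh probe set Dr.917.1.S1_at was at -0.07, -1.14 and -1.31 on the fadrozole arrays and at 0.86, -0.25 and -1.68 on the control arrays. The highest and the lowest of the 6 arrays were both controls, and they differed 5.78-fold. The deposited ratios behind these levels were 0.906, 0.506 and 0.379 for fadrozole and 1.677, 1.000 and 0.285 for control. The means were -0.84 ± 0.67 on fadrozole arrays and -0.36 ± 1.27 on control arrays (SD, n = 3 each), a log2 difference of -0.48 ± 0.72 (SE). The limma interval ran from 0.212 to 2.42 times the control level, so neither a halving nor a doubling lay outside it. Without control replicate 1 the difference was 0.12, and without control replicate 3 it was -1.14.

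The related gene gapdhs, which encodes a second form of the same enzyme, behaved otherwise. Its probe set Dr.1194.1.S1_at was at 0.05, 0.12 and 0.11 on the fadrozole arrays and at 0.03, 0.03 and 0.14 on the control arrays. The maker's 3 control probe sets named GAPDH are assigned to gapdhs by the platform annotation, and they ranged over 0.18, 0.27 and 0.24 log2 units across the 6 arrays. All 4 gapdhs probe sets thus stayed within a narrow band on the arrays where gapdh ranged over 2.53 log2 units. Their log2 differences were between -0.03 and 0.05.

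Among 14 transcripts that are often used as references, gapdh included, gapdh had the largest SD within groups, at 1.01 on the log2 scale. Whether its probe set was above background is unknown. The gapdhs probe set Dr.1194.1.S1_at, not among the 14, was at 0.051. The tightest of the 14 were the ribosomal protein gene rpl13a at 0.064 and the elongation factor gene eef1a1l1 at 0.082. They were followed by rplp0 at 0.10 and rps18 at 0.10. The cytoskeletal actins actb2 and actb1 were at 0.15 and 0.20. Next to gapdh stood hprt1, a gene of purine salvage, at 0.65 and the MHC light chain gene b2m at 0.58. Log2 differences of the other 13 ran from -0.18 for ppiaa to 0.24 for hprt1. All 14 overlapped between the groups, where 7.82% of all genes did not.

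**Figure D2:**
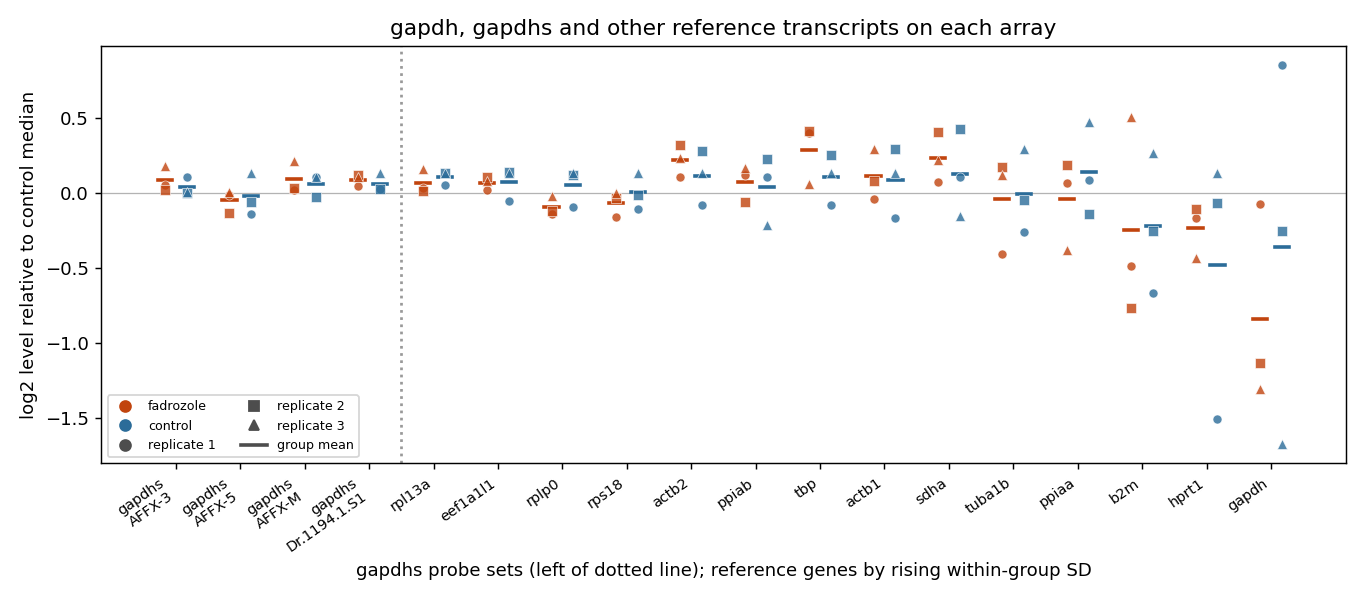
The y axis is the log2 level relative to the control median on each array (fadrozole orange, control blue) and bars are group means. The 4 gapdhs probe sets stand left of the dotted line, and the 14 reference transcripts follow by rising SD within groups, from 0.064 for rpl13a to 1.01 for gapdh.

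Phosphoglycerate kinase, which makes the first ATP of the pathway's lower part, had 2 probe sets for pgk1, and they disagreed. Their names hold different cluster numbers, 898.1 and 11354.1, and different tags, S1 and A1. Whether both report the same transcript was not tested. Dr.898.1.S1_at was at 0.06, 0.26 and 0.26 on the fadrozole arrays and at 0.11, 0.38 and -0.10 on the control arrays. Dr.11354.1.A1_at was at -0.79, -0.09 and -2.02 on the fadrozole arrays and at 1.17, -0.25 and -1.20 on the control arrays. The first stayed within 1.40-fold over all arrays, and the second ranged 9.14-fold. The gap between them on 1 array was between 0.35 and 2.28 log2 units. The log2 difference was 0.07 ± 0.27 (SE) for the first and -0.87 ± 0.77 (SE) for the second, whose unadjusted p in limma was 0.299. The second was the lowest difference of the 9 probe sets, and it ran from -1.42 without control replicate 3 to -0.24 without control replicate 1. Their mean, used for the gene, gave -0.40 ± 0.44 (SE).

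On the variable pgk1 probe set and on gapdh, the control arrays stood in the same order, replicate 1 highest and replicate 3 lowest. Fadrozole replicate 3 was the lowest fadrozole array on both. The highest fadrozole array differed, replicate 1 for gapdh at -0.07 and replicate 2 for the pgk1 probe set at -0.09. Muscle is rich in glycolytic enzymes, and the 18 measured markers of skeletal muscle had mean levels of 0.16, -0.11 and 0.38 on the fadrozole arrays and -0.002, -0.31 and 0.37 on the control arrays. The muscle mean was highest on replicate 3 of both groups, where gapdh was at -1.31 and -1.68. On fadrozole replicate 2 the muscle mean and gapdh were both low, at -0.11 and -1.14. The muscle markers differed between the groups by a median of 0.13, with 10 of 18 higher on the fadrozole arrays. The 10 measured red cell markers averaged 0.33, -0.33 and -0.06 on the fadrozole arrays and -0.13, -0.04 and -0.34 on the control arrays. The part of other tissues in the spread of gapdh and pgk1 was not tested.

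Enolase, which forms phosphoenolpyruvate, was measured for eno1a by Dr.4724.1.S1_at. It was at 0.14, -0.03 and 0.19 on the fadrozole arrays and at 0.11, 0.28 and 0.04 on the control arrays. All 6 arrays lay within 1.24-fold. The log2 difference was -0.04 ± 0.25 (SE), with a 95% interval of 0.635 to 1.48 times the control level.

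Lactate dehydrogenase is built from A subunits, which predominate in muscle, and B subunits, which predominate in heart and are also found in brain. The A subunit gene ldha (Dr.4212.1.S1_at) was at 0.07, 0.86 and 0.23 on the fadrozole arrays and at 0.11, 0.47 and -1.12 on the control arrays. Replicate 2 was the highest array of both groups, and control replicate 3 lay far below the other 5 arrays. The log2 difference of 0.57 ± 0.50 (SE) was the largest positive one of the members, with an unadjusted p of 0.301 in limma and an interval of 0.634 to 3.46 times the control level. Without control replicate 3 the difference was 0.10. The B subunit gene ldhba (Dr.729.1.S1_at) was at 0.20, 0.41 and -0.003 on the fadrozole arrays and at 0.11, 0.18 and -0.06 on the control arrays. In both groups replicate 2 was highest and replicate 3 lowest for ldhba. Its log2 difference was 0.13 ± 0.26 (SE), with an interval of 0.699 to 1.71 times the control level, and was 0.017 with fadrozole replicate 2 left out and 0.23 with fadrozole replicate 3 left out.

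The slide numbers in the labels fall into 2 runs, one with replicates 1 and 3 of both groups and one with replicate 2 of both. For ldha the mean of the replicate 2 arrays lay 0.84 log2 units above that of the other 4, and the same gap was 0.54 for the variable pgk1 probe set, 0.23 for ldhba and for the tight pgk1 probe set, 0.17 for tpi1b and 0.006 for eno1a. It ran the other way for gapdh, at -0.14, and for the aldocb probe sets, at -0.06 and -0.12. With the alignment of all 6 arrays, the log2 differences within the larger and the smaller run were 0.66 and 0.38 for ldha, 0.07 and 0.24 for ldhba, and -0.28 and -0.88 for gapdh, each with the same sign in both. They were -1.39 and 0.16 for the variable pgk1 probe set, 0.16 and -0.12 for the tight one, and 0.09 and -0.31 for eno1a, with opposite signs. They were -0.01 and -0.14 for tpi1b, and -0.03 and -0.10 for Dr.19223.1.S1_at and 0.05 and -0.32 for Dr.19223.1.S2_at of aldocb. With the run as a block in limma, 0 of the 9 probe sets had an unadjusted p under 0.05, and the smallest was 0.219 for ldha.

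**Figure D3:**
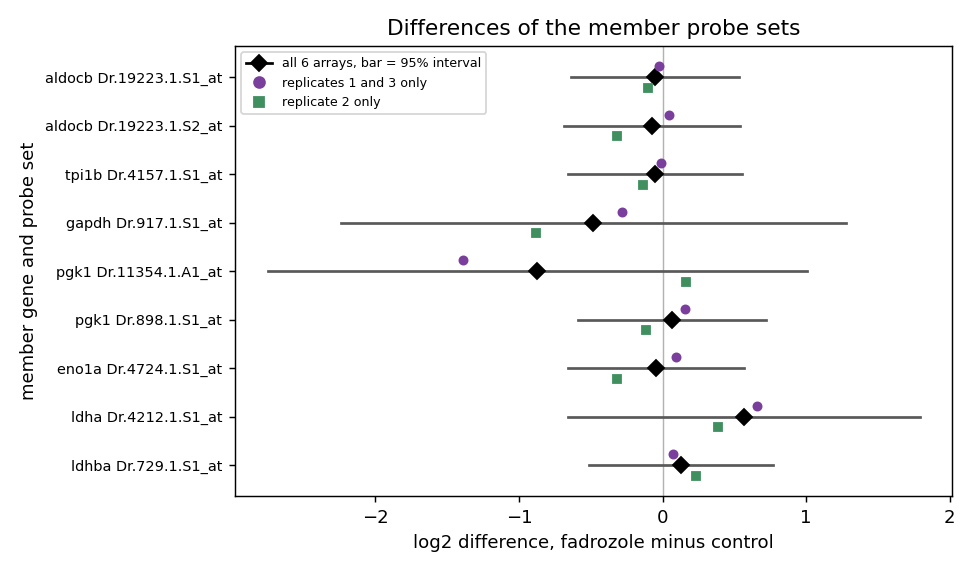
The x axis is the log2 difference, fadrozole minus control. Diamonds with bars give the estimate and 95% interval of limma over all 6 arrays, circles the difference among replicates 1 and 3 and squares that of replicate 2 alone. Every interval crosses 0, and the estimates run from -0.87 for the pgk1 probe set Dr.11354.1.A1_at to 0.57 for ldha.

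The members differed from each other in their spread between replicate arrays. Over all 15502 probe sets the SD within groups had a median of 0.63 and quartiles of 0.33 and 1.12 on the log2 scale. Of the 9 member probe sets, 6 were among the tightest 10% of all probe sets, with SDs from 0.048 to 0.19. The S1 probe set of aldocb ranked 11 of 15502 from the tightest, that of tpi1b ranked 198, that of eno1a 327 and the S2 probe set of aldocb 362. The levels of these 6 ran from -0.16 to 0.41 over all arrays. The other 3 had SDs of 0.66 for ldha, 1.01 for gapdh and 1.09 for the variable pgk1 probe set, at the 51.6th, 69.6th and 73.4th percentiles. No test was made of this contrast in spread.

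**Figure D4:**
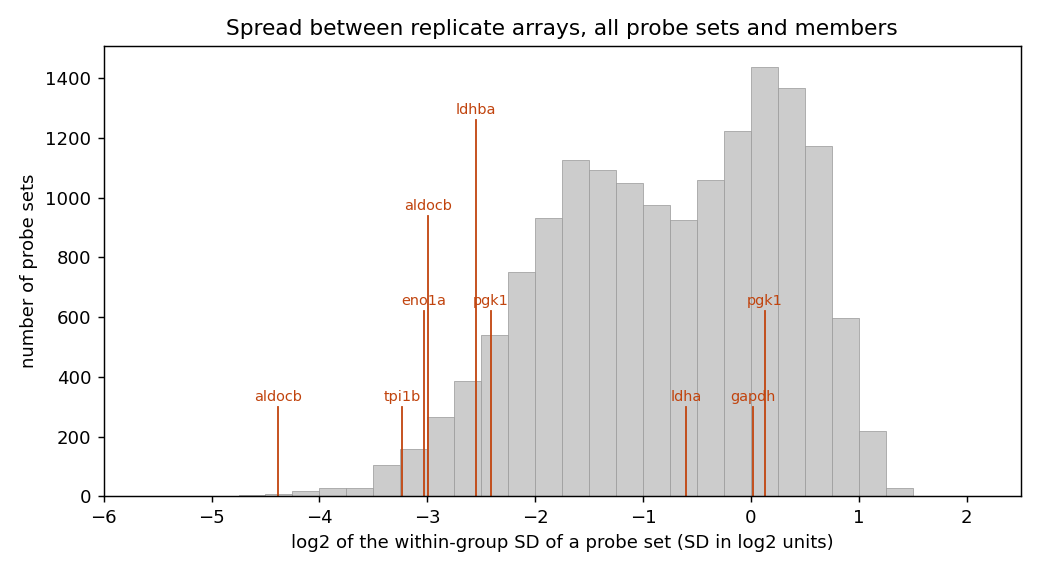
The x axis is the log2 of each probe set's SD within groups and the y axis the number of probe sets. Grey bars count all 15502 probe sets, and orange lines mark the 9 member probe sets at heights that only separate their names. Among the members 6 lines lie in the left tail, at SDs of 0.048 to 0.19, and ldha, gapdh and a pgk1 probe set lie at 0.66, 1.01 and 1.09.

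How near each member lay to the members' mean profile over the arrays was also described, without scaling to equal spread. Such distances reflect spread as well as shape, so they cannot show whether the members shared a profile. After each gene was centred on its mean, the root mean square difference from the members' mean profile over the 6 arrays was smallest for ldhba at 0.20 and largest for gapdh at 0.65. Among genes that were neither members nor in the pathway lists, 372 lay closer to that profile than ldhba. The 5 nearest, rida, huwe1, sh3bp5b, psd3l and hmg20b, were at 0.063 to 0.085, as a description of these 6 arrays only.

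Of 32 other genes listed for glycolysis, 23 had a probe set. Of these, 10 were higher and 13 lower on the fadrozole arrays, where 50.0% of all genes were lower. Their median log2 difference was -0.02, against -0.0002 for all 8793 genes, and ran from -0.06 without fadrozole replicate 3 to 0.06 without control replicate 2. In limma 1 of the 23 had an unadjusted p under 0.05, where 4.09% of all genes did, and 0 passed the adjusted test, where 0% of all genes did. That gene was pgam5, at -0.75 ± 0.28 (SE), with -0.44, -0.46 and -1.12 on the fadrozole arrays and 0.13, 0.01 and 0.10 on the control arrays. The groups did not overlap for pgam5, as for 7.82% of all genes. Despite its name, pgam5 is known in mammals as a mitochondrial protein phosphatase and not as an enzyme of glycolysis, and without it 10 of 22 genes were higher. Next by p came ldhbb, the second B subunit gene, at 0.56 ± 0.51 (SE), where control replicate 1 stood alone at -1.48.

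At the other steps of the pathway the differences were mostly small beside their errors. The hexokinase genes hk1 and hk2, which phosphorylate glucose, were at 0.23 ± 0.48 and 0.06 ± 0.81 (SE). The phosphofructokinase genes pfkma, pfklb and pfkpa, which catalyse the main regulated step, were at -0.01 ± 0.36, -0.04 ± 0.51 and -0.10 ± 0.26 (SE). The mutase genes pgam1a and pgam1b were at 0.06 ± 0.26 and -0.07 ± 0.29 (SE), and the pyruvate kinase gene pkma at -0.02 ± 0.26 (SE). Of the forms typical of other tissues, the liver-type pyruvate kinase gene pklr was at -0.58 ± 0.93 and the mutase gene pgam2, which is of muscle type, at -0.15 ± 0.74 (SE). The muscle-type enolase gene eno3 was at 0.37 ± 0.36 (SE). Like the muscle markers it was highest on replicate 3 of both groups, at 0.94 on the fadrozole array and 0.60 on the control array. So were pgam2, at 1.21 and 0.46, and the hexokinase gene hk2, at 0.71 and 1.09. The aldolase gene aldoab ran the other way, lowest on replicate 3 of both groups, at -0.29 and -0.37. Control replicate 3 was also the lowest array for ldha, at -1.12. The part of muscle tissue in these levels was not tested.

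**Figure D5:**
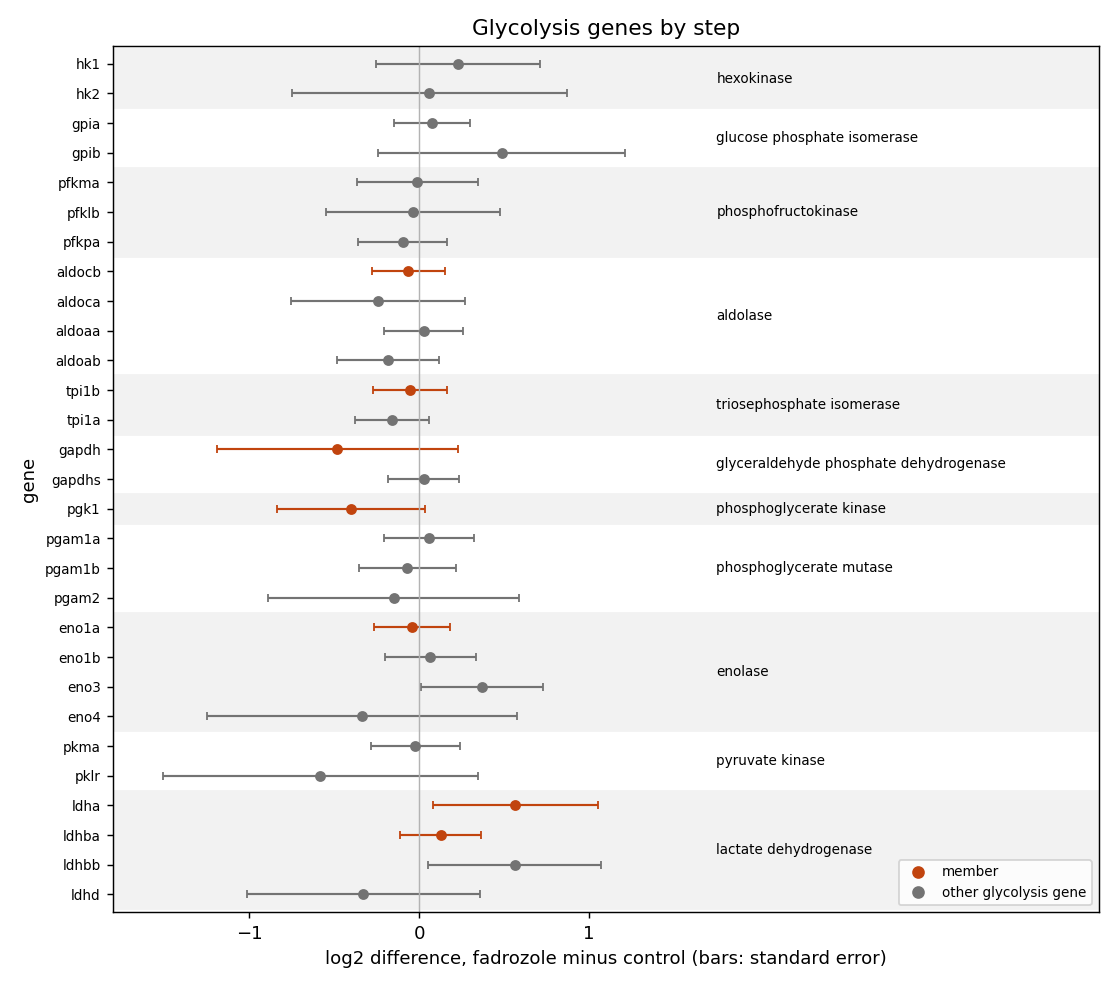
The x axis is the log2 difference, fadrozole minus control, of each measured glycolysis gene, with bars for the standard error of limma. Genes run down the page by step from hexokinase to lactate dehydrogenase, members in orange and other genes in grey, and pgam5 is left out. Differences lie from -0.58 for pklr to 0.57 for ldha.

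The other 6 lists hold genes that feed, regulate or leave the pathway. Counts below are of the genes measured, which were 17 of 27 listed for phosphofructokinase regulation and hypoxia response. They were 9 of 15 for pyruvate dehydrogenase and 13 of 30 for gluconeogenesis and glycogen. For the pentose phosphate and glycerol phosphate branches 8 of 14 were measured, and for the malate-aspartate shuttle 9 of 11. The 17 genes of phosphofructokinase regulation and hypoxia response had a median of -0.11, with 7 higher and 10 lower and 0 at an unadjusted p under 0.05. Without fadrozole replicate 3 that median was 0.03. Of these hif1al, a hypoxia-inducible factor, was at -0.57 ± 0.27 and egln3, a prolyl hydroxylase that marks such factors for breakdown, at 1.55 ± 0.90 (SE). The egln3 levels were 1.97, -0.60 and 2.81 on the fadrozole arrays and 0.11, 0.14 and -0.73 on the control arrays, so fadrozole replicate 2 lay within the control range.

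Of 19 genes listed for glucose, lactate and pyruvate transport 8 were measured, and slc2a1a and slc2a1b were not among them. The 8 were split, with 4 higher, 4 lower and a median of -0.02. That median ran from -0.15 without control replicate 3 to 0.25 without control replicate 2. The glucose transporter gene slc2a10 was at 2.59, 1.85 and 1.13 on the fadrozole arrays and at -0.41, 0.57 and 0.14 on the control arrays. All 3 fadrozole arrays lay above all 3 control arrays, with a log2 difference of 1.76 ± 0.47 (SE) and an unadjusted p of 0.00928 in limma. The lactate and pyruvate carrier gene slc16a1b was at -0.43, -2.54 and -1.28 on the fadrozole arrays and at 0.16, -0.25 and -0.05 on the control arrays, a difference of -1.37 ± 0.55 (SE). Both had no overlap between the groups, as for 7.82% of all genes. The exact permutation p was 0.1 for each, the smallest that 3 against 3 arrays allow. Neither passed the adjusted test, and limma gave 4.09% of all genes an unadjusted p under 0.05.

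The pyruvate dehydrogenase complex commits pyruvate to the mitochondrion. Its list pooled subunits with regulators, among them kinases that act against the complex. In that list 8 of 9 genes were higher, where 50.0% of all genes were lower. The median was 0.20, and 0 had an unadjusted p under 0.05 in limma. The kinase gene pdk4, which switches the complex off, was at 0.90 ± 0.49 and dldh, which encodes the dihydrolipoamide dehydrogenase subunit, at 0.50 ± 0.44 (SE). The list took dld by its symbol, which in zebrafish names a Notch ligand, and without dld 7 of 8 genes were higher, with a median of 0.21. Without control replicate 1, on which pdk4 was at -1.36, the median of all 9 was 0.075. The 13 genes of gluconeogenesis and glycogen had a median of -0.04, with 5 higher, and medians of -0.14 when fadrozole replicate 3 was left out and 0.03 when fadrozole replicate 2 was. They were led by p by pck1, a gluconeogenic enzyme, at -1.29 ± 0.69 and fbp1b, another, at 0.95 ± 0.63 (SE). The 8 genes of the pentose phosphate and glycerol phosphate branches had a median of 0.13, with 6 higher, and a median of 0.065 without control replicate 2. They were led by pgls at 0.44 ± 0.34 and the transaldolase gene taldo1 at 0.17 ± 0.22 (SE). The 9 genes of the malate-aspartate shuttle, which carries the electrons of cytosolic NADH into mitochondria, had a median of -0.05, with 3 higher, and that median ran from -0.12 without fadrozole replicate 2 to 0.055 without control replicate 2. They were led by the aminotransferase gene got2a at -0.62 ± 0.48 and got1l1 at -1.13 ± 1.03 (SE).

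Over the 7 lists together, limma gave 3 of 87 genes (3.45%) an unadjusted p under 0.05, against 4.09% of all genes. The groups did not overlap for 7 of the 87 (8.05%), against 7.82% of all genes. These 7 were pgam5, hif1al, pfkfb4b, slc2a10, slc16a1b, pdk4 and mdh1aa, and both shares were near those of all genes.

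For comparison on the same arrays, brain aromatase, cyp19a1b, which is made in radial glia, was at -0.73, -1.50 and -0.90 on the fadrozole arrays and at 0.37, -0.13 and -0.04 on the control arrays. Its log2 difference of -1.11 ± 0.31 (SE) had an SD within groups of 0.34, larger than that of 6 of the 9 glycolysis probe sets. In limma its unadjusted p was 0.0118 and its adjusted p 0.945, so cyp19a1b did not pass the adjusted test either. Its groups did not overlap, as for 7.82% of all genes, and its exact permutation p was 0.1. The measured radial glia markers, 11 genes with cyp19a1b among them, averaged -0.09, -0.002 and -0.01 on the fadrozole arrays and 0.06, 0.13 and 0.07 on the control arrays. By gene, 6 of these 11 were higher and 5 lower on the fadrozole arrays, with a median log2 difference of 0.06. The list's mean and median thus had opposite signs. The mean includes cyp19a1b at -1.11, and a mean without it was not computed. The 8 neuron markers averaged 0.13, 0.12 and 0.07 on the fadrozole arrays and 0.10, 0.22 and 0.03 on the control arrays. Aldolase C is also a known marker of cerebellar Purkinje cells. Of 8 listed Purkinje markers, 5 were measured. They averaged -0.03, 0.27 and 0.22 on the fadrozole arrays and -0.007, 0.09 and -0.34 on the control arrays. The aldolase C gene aldocb ranged over 0.21 log2 units across all 6 arrays, and its copy aldoca over 1.76. Which copy marks Purkinje cells was not examined, and the part of cerebellar tissue in these levels was not tested.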

How the data were processed

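Biotin-labelled RNA was hybridised to one-colour Affymetrix zebrafish arrays, 1 per pool, per the labels. The authors deposited a linear ratio per probe set and array, already divided by that probe set's control median, since the 3 control values had a median of exactly 1 in all 15617 rows. For the scaling, the summary of probes and the software used before that division, the method is not given in the sources used here. Ratios had no zeros, so log2 was taken with a pseudocount of 0, and no filter on dim signals was possible.

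The maker's 115 control probe sets were left out. Arrays were aligned by subtracting a shift, the median over probe sets of the deviation from the mean of the 6 arrays (-0.07, 0.15 and -0.09 for fadrozole replicates 1 to 3, and -0.11, 0.25 and -0.14 for control replicates 1 to 3). GEO's platform annotation gave 1 symbol to 10795 probe sets, several to 135 and none to 4572. A RefSeq table held 10711 of the 10795 and updated 1 symbol. Genes with several probe sets took their mean.

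The groups were compared in R 4.3.3 with limma 3.58.1 (lmFit, eBayes; two-sided), fitted over all probe sets or all genes with Benjamini-Hochberg adjustment. The code was tested on simulated data. SE is that of the log2 difference. The 7 members and all lists were chosen with earlier results of these data known. Named genes were the members, the 2 with the smallest p in each list and any with an unadjusted p under 0.05, the 5 nearest profiles, reference genes and cyp19a1b. Others named (glycolysis forms by step, gapdhs control probe sets, genes without overlap) were added after their values were seen. Alternatives were the replicate number or the slide run as a block, each slide run alone, other scalings, a variance trend, array weights, no _x_at probe sets, medians of probe sets, and each array left out. After the shifts were removed, same-numbered arrays of the 2 groups correlated in their deviations from the group means with r of 0.06, 0.19 and 0.09. The numbers were not taken as pairs, though low r over all probe sets does not show that pairing was absent. With the replicate number as a block the SE was 0.39 in place of 0.72 for gapdh, and 0.26 in place of 0.25 for eno1a.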

Additional observations from a re-analysis of the deposited data

How the results depend on the processing

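In limma 0 of the 9 member probe sets had an unadjusted or adjusted p under 0.05 under any alternative that gives a test, including the replicate number as a block. Over all probe sets 0 passed the adjusted test under each of these. The count of all probe sets at an unadjusted p under 0.05 was 655, and 842 with the replicate block, 794 with the slide run as a block, 338 with quantile normalisation, and 646 to 994 with an array left out, the highest without control replicate 2. The members' median of -0.05 ran from -0.08 to 0.02 with an array left out, and 4 to 7 of the 9 were then lower. The signs of single members turned as follows, and the cause was not tested. In the larger slide run alone, with the arrays of that run aligned anew, eno1a was at 0.084, the S2 probe set of aldocb at 0.037 and the mean of both aldocb probe sets at 0.0012. In the smaller run alone, likewise aligned anew, pgk1 was at 0.17 for Dr.11354.1.A1_at, -0.11 for Dr.898.1.S1_at and 0.027 for their mean. With an array left out the log2 differences ran from -0.13 to 0.020 for the S2 probe set of aldocb, from -0.105 to 0.020 for tpi1b, from -0.093 to 0.024 for eno1a, from -0.046 to 0.19 for Dr.898.1.S1_at and from -1.14 to 0.12 for gapdh. No member changed sign under another scaling of the arrays, a variance trend or array weights. The number of arrays limits precision, and without brightness no member could be checked for signal over background.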
